A study of Homo sapiens with 8 samples.

Results

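The accessibility of chromatin around 7 mesenchymal transition genes, ZEB1, ZEB2, SNAI2, TWIST1, VIM, CDH2 and FN1, was examined by ATAC-seq in the lung cancer line H1650, which the labels give as non-small cell. One fixed hg19 window was taken per gene, and every region that overlapped a window was a member. Peaks of the 8 ATAC-seq lists that overlapped or touched were first merged into regions, which gave 20 members among 46665 regions. In ATAC-seq a transposase cuts and tags the DNA it can reach, so accessible chromatin gathers tags. The 4 groups had 2 libraries each. Untreated cells received no siRNA, siControl cells a non-targeting pool, siMena11a cells a mix of siRNAs matching exon 11a of ENAH, and siMena cells a pool against ENAH as a whole, each siRNA at 20 nmol/L with a lipid reagent. The labels do not give the time from transfection to harvest. ENAH encodes hMENA, an actin regulatory protein, and hMENA11a is its epithelial isoform. All libraries came from 1 cell line, and the labels do not say whether replicates were separate cultures.

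In epithelial-mesenchymal transition, cells lose epithelial junctions and take on a migratory, fibroblast-like state. Transcription factors of the ZEB, SNAI and TWIST families repress epithelial genes such as CDH1 by binding short E-box motifs, and genes of the mesenchymal cytoskeleton, adhesion and matrix are switched on. ZEB1, ZEB2, SNAI2 (Slug) and TWIST1 are such factors, VIM encodes the intermediate filament vimentin, CDH2 encodes N-cadherin and FN1 encodes the matrix protein fibronectin. In lung cancer lines these genes are used as markers of a mesenchymal phenotype.

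The series concerns what the hMENA isoforms regulate in lung cancer cells, and its text does not name these 7 genes. A region was called listed in a library when a peak of that list lay in it. The fold is the authors' ratio of the tag pileup at the summit to the local background, with 1 added to each, and the highest fold of a region in a library is given. The lists held 14678 to 35472 peaks in the replicate 1 libraries, and 22424, 5231, 2832 and 1020 in replicate 2 of untreated, siControl, siMena11a and siMena. The recovered genome-wide background was 1.09 to 2.88 tags per position in replicate 2 and 0.538 to 0.935 in replicate 1. At that background the weakest peaks listed had 5 to 7 tags in the replicate 1 lists and 7, 11, 12 and 13 in the replicate 2 lists. A region missing from a list is below its threshold, which is not the same as closed. Folds of the members rested on 9 to 37 tags at the summit (median 16), and the 95% exact Poisson intervals given below cover counting error of these tags only.

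Together the 7 windows, 1070 kb in all, held 1.87 regions per 100 kb, against 1.57 per 100 kb over chromosomes 1 to 22 and X. The density was 5.90 in 6 windows set around epithelial genes (610 kb). It was 4.203 in the 10 windows of other mesenchymal genes given below (690 kb). The windows were of unequal length, and the part of window length in these densities was not tested. ZEB1 had the fewest for its length, 2 regions in 260 kb, and VIM the most, 3 regions in 70 kb. ZEB2 had 4 regions in 200 kb, CDH2 4 in 290 kb, FN1 3 in 130 kb, and SNAI2 and TWIST1 2 each in 60 kb. Member regions were 200 to 1367 bp wide with a median of 447 bp, and 394 bp was the median over all regions. Of the 20, 8 (40.0%) were listed in 1 library, against 31.2% of all regions, and 2 (10.0%) in 5 or more, against 24.6%. No member was listed in all 8 libraries, as 1.16% of all regions were. The regions fell on 50 library entries, 40 of them in replicate 1 libraries and 10 in replicate 2. VIM and ZEB1 each had 1 member listed in every one of the 4 replicate 1 libraries.

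**Figure D1:**
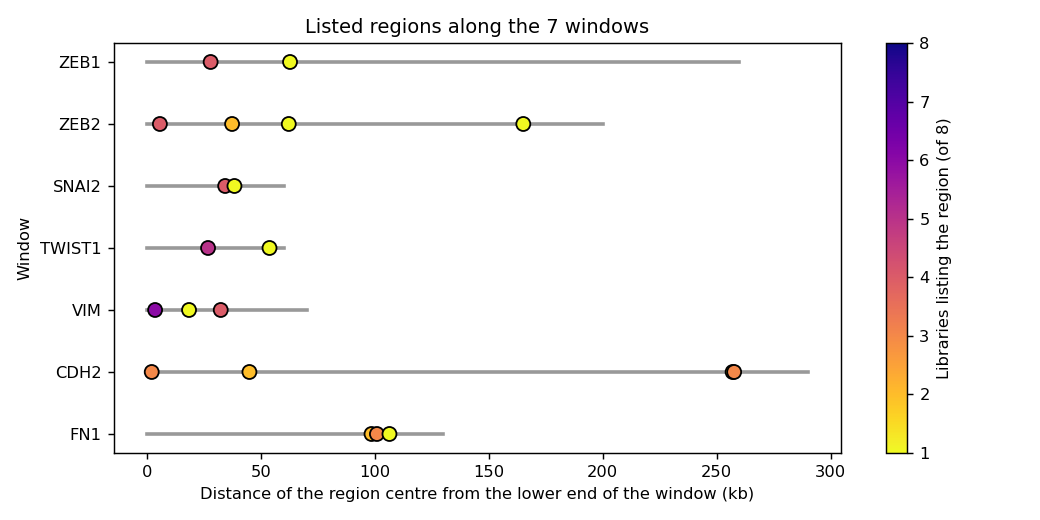
Position of the 20 regions in the 7 windows. The horizontal axis is the distance of the region centre from the lower end of the window in kb, grey lines are the windows, and the colour of a point gives the number of libraries that list the region. At FN1 the 3 regions start 98.4 to 106.2 kb from the lower end, and at CDH2 a pair near 257 kb overlaps in the drawing.

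**Figure D2:**
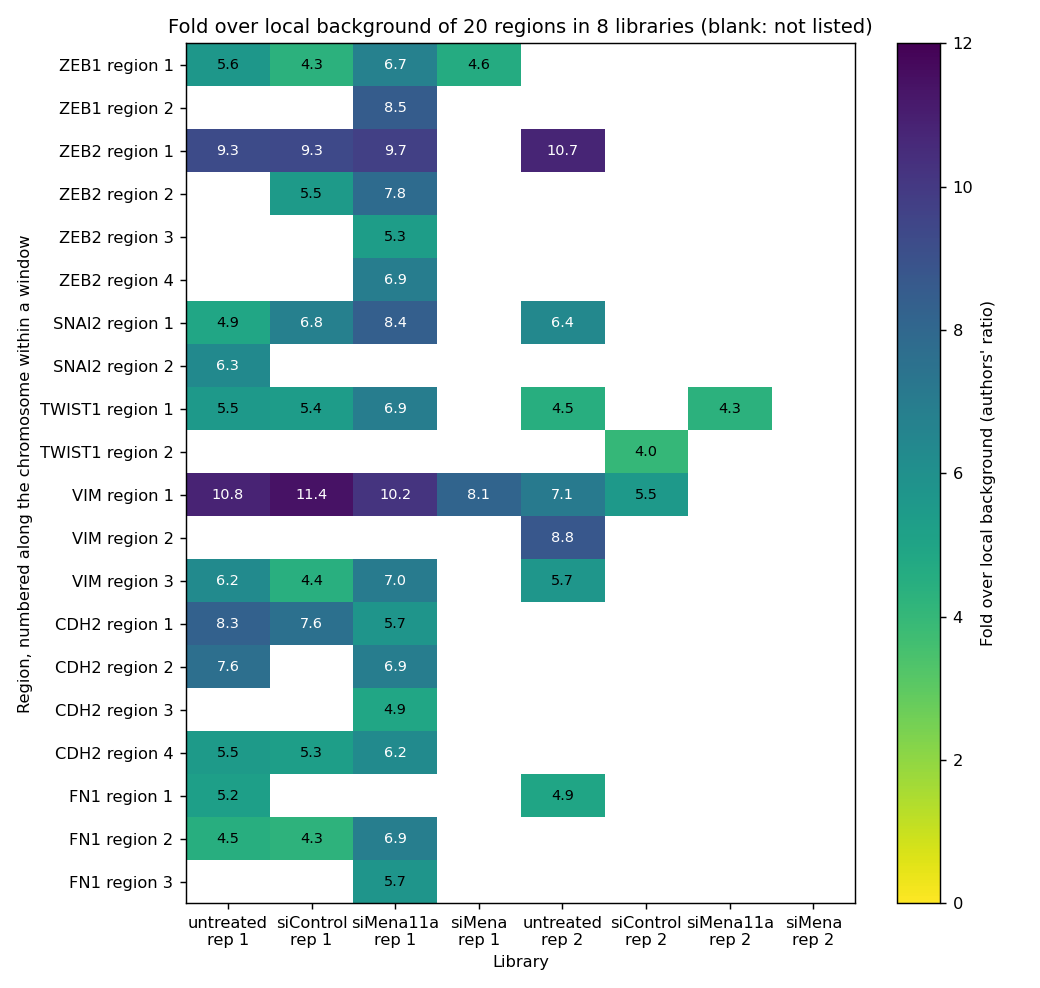
Fold over local background of each member region (rows, numbered by position in a window) in each library (columns, replicate 1 then replicate 2). Filled cells carry the fold and blank cells are regions not listed. The siMena11a replicate 1 column has 16 filled cells and the siMena replicate 2 column has 0.

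ZEB1, on chromosome 10, encodes a zinc finger repressor of CDH1. Its wide region from 31607221 to 31608587 was listed in all 4 replicate 1 libraries and in no replicate 2 library, where the untreated fold was 5.64, that of siControl 4.30, that of siMena11a 6.74 and that of siMena 4.62. The siMena11a value was the highest, but its counting interval of 4.45 to 9.82 overlapped those of siControl (2.38 to 7.27) and siMena (2.44 to 8.15). The strongest summits of the 4 lists were up to 1113 bp apart, so the folds were not all taken at one position. Held to a score of at least 50, the region split into one part listed in 1 library and another listed in 2. The second region, from 31642614 to 31642893, was listed in siMena11a replicate 1 only, with a fold of 8.51 (15 tags).

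The gene has 7 start sites in the RefSeq promoter table, which is in GRCh38.p14 and not in the build of the peaks, so whether a start lies in the wide region was not analysed here. The promoters run from 250 bases before to 50 after a start. CACCTG, the E-box read by ZEB and SNAI proteins, was searched on both strands as CACCTG and CAGGTG. It was present in 2 of the 12 promoters of the 5 members found in the table, both of ZEB1, and in 20.6% of all 35116 promoters. The ZEB1 promoter at chr10:31318966-31319265 (plus strand), shown because it held the most matches among the members and chosen after these were counted, has 3 of them in capitals, and 0.635% of all promoters held 3 or more.
ZEB1 promoter: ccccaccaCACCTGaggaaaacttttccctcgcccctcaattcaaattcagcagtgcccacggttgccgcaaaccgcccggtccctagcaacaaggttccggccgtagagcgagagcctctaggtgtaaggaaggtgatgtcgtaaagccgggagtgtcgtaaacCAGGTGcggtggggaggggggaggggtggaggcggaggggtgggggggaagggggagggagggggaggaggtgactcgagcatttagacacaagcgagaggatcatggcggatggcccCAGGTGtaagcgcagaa

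ZEB2, the paralogue of ZEB1, lies on chromosome 2. Its strongest region, from 145115327 to 145115933, lay 5.33 kb inside the lower end of the window, which for this minus-strand gene is the downstream side. The fold was 9.26 and 10.7 in the untreated replicates, 9.33 in siControl replicate 1 and 9.75 in siMena11a replicate 1, with summits within 25 bp of each other. The siControl and siMena11a intervals, 6.11 to 13.7 and 6.27 to 14.5, almost coincided, and the 4 folds ranked in percentiles 78.9 to 95.9 of their lists. The region was not listed in either siMena library. A region from 145146991 to 145147642 was listed in siControl and siMena11a replicate 1, with folds of 5.45 and 7.81. Another pair, from 145172099 to 145172298 and from 145274929 to 145275355, was listed in siMena11a replicate 1 only, with folds of 5.32 (9 tags, the fewest of any member) and 6.91 (16 tags).

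SNAI2 on chromosome 8 encodes Slug, a repressor that binds the same E-boxes. Its region from 49833858 to 49834689 had folds of 4.92 and 6.41 in the untreated replicates, 6.79 in siControl replicate 1 and 8.39 in siMena11a replicate 1. The untreated replicates spanned 1.30-fold and the siControl value lay just above them. The siMena11a interval of 5.50 to 12.3 overlapped all others, and summits agreed within 43 bp. The peak was also longest in siMena11a replicate 1, 827 bp with 3 summits, against 242 to 448 bp with 1 summit elsewhere. A short region from 49838233 to 49838479 was listed in untreated replicate 1 only, with a fold of 6.30.

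TWIST1 on chromosome 7 encodes a basic helix-loop-helix factor. Its region from 19156195 to 19157338 was the only member region listed in siMena11a replicate 2, 5.00% of the 20 against 5.92% of all regions, so the count itself is near the background. Folds were 5.53 and 4.46 in the untreated replicates, 5.39 in siControl replicate 1, and 6.91 and 4.31 in siMena11a replicates 1 and 2. The peak spanned 1052 to 1138 bp in the 3 replicate 1 lists that held it, and 535 and 252 bp in untreated and siMena11a replicate 2. Up to 37 tags stood at its summit, the most among members, over local backgrounds of 3.16 to 5.50 tags, so that its folds were modest and ranked in percentiles 12.6 to 55.1 of their lists. A second region, from 19183636 to 19183860 on the side of the neighbouring gene FERD3L, was listed in siControl replicate 2 only, with a fold of 4.02 over 15 tags.

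The VIM window on chromosome 10 held the most widely listed member region, from 17243214 to 17243825, which was in 6 libraries. Folds were 10.8 and 7.05 in untreated, 11.4 and 5.51 in siControl, 10.2 in siMena11a replicate 1 and 8.12 in siMena replicate 1. Replicate 2 was lower than replicate 1 in both groups that had both, and at regions shared by the 2 siControl lists the median ratio of replicate 2 to replicate 1 was 0.577. Summits agreed within 25 bp. The region lay 3.21 kb inside the lower end of the window, on the side where RefSeq places VIM-AS1 and then TRDMT1, and its link to VIM was not tested. Where it is called the first VIM region below, only its place in the window is meant. The region from 17272020 to 17272659, nearer the middle of the window, had folds of 6.25 and 5.69 in untreated, 4.44 in siControl replicate 1 and 7.03 in siMena11a replicate 1, and was not listed in siMena. Its strongest summits were up to 333 bp apart, so these folds were not all taken at one position. Between this and the first VIM region, the region from 17258207 to 17258636 was listed in untreated replicate 2 only, with a fold of 8.75 (interval 5.87 to 12.6) and 27 tags, the most of any member found in 1 library.

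CDH2 on chromosome 18 had 4 regions, none of them in a replicate 2 list or in siMena. At the downstream end of the window, the region from 25501730 to 25502359 had folds of 8.26 in untreated, 7.59 in siControl and 5.74 in siMena11a replicate 1, so siMena11a was lowest here. Its interval of 3.25 to 9.52 overlapped that of siControl, 4.53 to 12.05. The region from 25544737 to 25545118 had folds of 7.61 in untreated and 6.93 in siMena11a. Near the upstream end of this minus-strand gene's window, the region from 25757297 to 25758102 had folds of 5.45, 5.28 and 6.25 in untreated, siControl and siMena11a replicate 1, so siMena11a was highest here. Both this region and the one from 25501730 were listed in 3 libraries, and their order of libraries differed. Beside the region from 25757297, the one from 25756922 to 25757121 was listed in siMena11a only, with a fold of 4.90. The peak from 25757297 reached 806 bp in siMena11a, against 215 and 299 bp in untreated and siControl.

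FN1 on chromosome 2 had 3 regions in the upstream part of its window. The region from 216300665 to 216301128 had folds of 4.47 in untreated, 4.26 in siControl and 6.89 in siMena11a replicate 1, on 10, 11 and 22 tags. The siMena11a interval of 4.43 to 10.3 overlapped that of siControl, 2.302 to 7.33. Both untreated lists held the region from 216298373 to 216298673, at folds of 5.24 and 4.94, and no transfected library did. The region from 216306200 to 216306602 was listed in siMena11a replicate 1 only, with a fold of 5.73. The FN1 promoter in RefSeq is rich in CpG and is shown for that contrast with ZEB2 and VIM: 38 CpG dinucleotides in 300 bases, percentile 90.1 of all promoters, against 14 at ZEB2 and 10 at VIM. The 7 ZEB1 promoters held 7 to 35, the highest in percentile 85.9. The promoters of CDH2, the remaining member in the promoter table, were not set beside these. The median over all promoters was 14. The position of the FN1 promoter is chr2:215436019-215436318 in GRCh38.p14, minus strand, and capitals mark each CpG.
FN1 promoter: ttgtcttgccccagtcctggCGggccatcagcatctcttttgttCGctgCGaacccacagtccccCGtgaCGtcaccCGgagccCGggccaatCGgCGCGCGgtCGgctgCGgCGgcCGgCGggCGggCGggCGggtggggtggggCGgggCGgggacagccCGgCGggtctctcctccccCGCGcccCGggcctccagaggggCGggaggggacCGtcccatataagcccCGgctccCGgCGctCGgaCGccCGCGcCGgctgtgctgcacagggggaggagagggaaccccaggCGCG

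**Figure D3:**
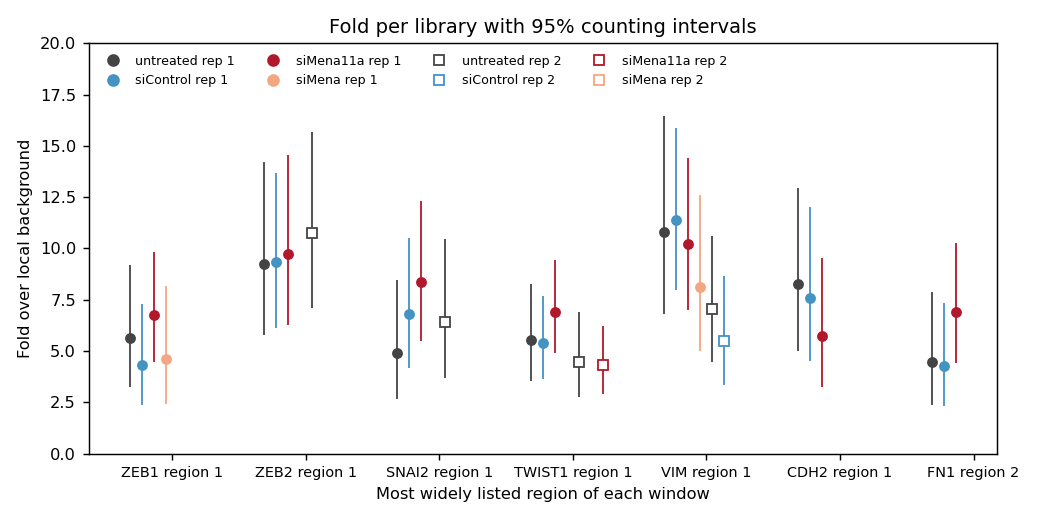
Fold over local background (vertical axis) of the most widely listed region of each window, per library, with 95% exact Poisson counting intervals. At CDH2 a pair of regions tied at 3 libraries, and the one drawn, from 25501730, ranked higher in its lists. Filled circles are replicate 1 and open squares replicate 2, and libraries that do not list a region have no point. The ZEB2 and VIM regions reach folds above 9 in untreated, siControl and siMena11a replicate 1, and within each of the 7 regions all drawn intervals overlap.

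Isoform silencing was set against the control siRNA. A region was gained if both siMena11a libraries listed it and neither siControl library did, and lost in the opposite case. Of the 20 members, 0 were gained and 0 lost, where 0.0279% and 0.0557% of all regions were. Only 1 member was listed in both siMena11a libraries and 1 in both siControl libraries, so at most 1 could be gained and 1 lost. With 2 libraries against 2, an exact permutation test cannot give a p below 0.333, so no region was tested. Within replicate 1, siMena11a listed 6 members (30.0%) that siControl lacked, in the ZEB1, ZEB2, CDH2 and FN1 windows, against 24.2% of all regions. The opposite held for 0 members and 6.25% of all regions. Of the 6, 5 were listed in no other library and so are members only through siMena11a replicate 1. Over all regions, 5199 were listed in that library only. Within replicate 2, siMena11a alone listed 1 (TWIST1; 1.03% of all regions) and siControl alone listed 2 (VIM and the second TWIST1 region; 5.97%). At the 10 members that both replicate 1 lists held, the fold was higher in siMena11a at 8 and lower at 2, the lower ones being the first VIM and the first CDH2 region, with a median log2 ratio of 0.33. Over the 23530 regions shared by the same lists, 65.5% were higher in siMena11a and the median log2 ratio was 0.13. The counting intervals overlapped in 10 of 10 pairs, and no member was listed in both replicate 2 libraries, so the higher folds have no second replicate. Some pairs of folds were taken at different summits and are not changes at one position. Among the higher ones these include VIM from 17272020 (ratio 1.58, summits 17272511 in siControl and 17272202 in siMena11a) and ZEB1 (1.56, 31607369 and 31607693). They also include ZEB2 from 145146991 (1.43, 145147414 and 145147137) and, among the lower ones, the first CDH2 region (0.756, 25502165 and 25501998).

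Silencing of hMENA as a whole against the same control gave 0 gained and 0 lost members, against 0.00214% and 1.03% of all regions. No member was listed in siMena replicate 2, so none could be gained. Just 1 was listed in both siControl libraries, so at most 1 could be lost. Only 2 members were listed in siMena replicate 1, the first VIM and the first ZEB1 region, and 0 in siMena replicate 2, a list that held 2.14% of all regions and so leaves nothing to read from the 0. The 10.0% listed in siMena replicate 1 compares with 30.2% of all regions, and with 27.8% of regions in the epithelial windows and 27.6% in the other mesenchymal windows given below. Within replicate 1, siControl listed 8 members (40.0%) that siMena lacked, against 28.2% of all regions. They lay in 6 of the windows, among them the ZEB2 region with a fold of 9.33 and the SNAI2 region with one of 6.79. The reverse held for 0 members and 1.81% of all regions. The siMena replicate 1 list was the shorter one, with 14678 peaks against 27304 in siControl replicate 1. The part of list length in these counts and shares was not tested. Within replicate 2 the siControl list alone held 2 members (9.06% of all regions) and siMena alone 0 (0.326%). At the 2 members in both replicate 1 lists, the fold ratio of siMena to siControl was 0.712 in the VIM window and 1.07 at ZEB1. The median over 13266 shared regions was 0.819. The ZEB1 folds were taken at different summits, 31607369 in siControl and 31607796 in siMena, so their ratio is not a change at one position.

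**Figure D4:**
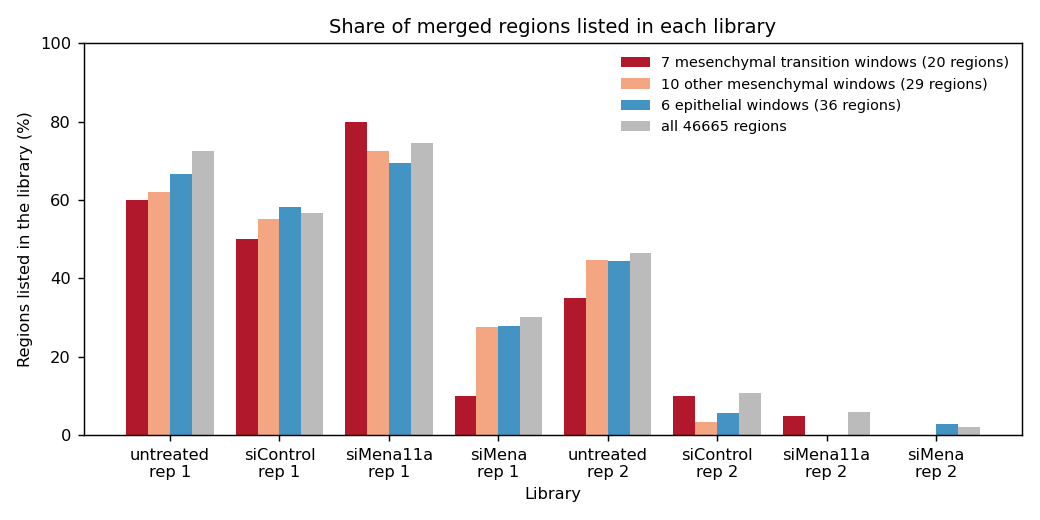
Share of regions listed in each library (percent, vertical axis) for the 7 mesenchymal transition windows, 10 other mesenchymal windows, 6 epithelial windows and all regions. In siMena replicate 1 the share is 10.0% for the mesenchymal transition windows and 27.6% to 30.2% for the other bars, and in siMena11a replicate 1 it is 80.0% against 69.4% to 74.6%. The 80.0% includes 5 members listed in no other library, and the 10.0% counts these 5 among the members not listed.

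Transfection itself was examined by siControl against untreated cells. Of the 20 members, 0 were gained, against 0.120% of all regions, and 1 was lost, the FN1 region from 216298373, against 3.65%. That region was a weak one in percentiles 18.9 and 22.6 of the untreated lists, and it was not among the losses when lists were shortened to equal length. Only 1 member was listed in both siControl libraries and 6 in both untreated ones, which limited how many could be gained or lost. Within replicate 1, siControl listed 1 member that untreated lacked (the second ZEB2 region; 6.93% of all regions) and lacked 3, at CDH2, FN1 and SNAI2 (22.7%). Within replicate 2 these were 1 (1.07%) and 6 (36.6%). At 9 members in both replicate 1 lists, siControl was higher at 3 and lower at 6, with a median log2 ratio of -0.05, against -0.21 over all 23212 shared regions. The largest rise in fold was at SNAI2, 4.92 to 6.79, and the largest fall at the VIM region from 17272020, 6.25 to 4.44. The 2 VIM folds were taken at different summits, 17272178 in untreated and 17272511 in siControl. That fall is thus not a change at one position.

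The 2 knockdowns were also compared with each other. The TWIST1 region from 19156195 was gained in siMena11a relative to siMena, 1 of 20 members against 0.240% of all regions, and 0 were lost, against 0.00643%. It was the only member listed in both siMena11a libraries, and siMena replicate 2 listed 0 members, so no other member could be called. The call was absent when peaks had to cover 50% of a region, since the siMena11a replicate 2 peak spans 252 of 1144 bp, and when the lists were shortened to equal length. The region was also listed in both untreated libraries and in siControl replicate 1. Within replicate 1, siMena11a alone listed 14 members (70%), against 45.5% of all regions, and siMena alone 0, against 1.07%. Of the 14, 5 are members only through siMena11a replicate 1, the single library that listed them. Within replicate 2, siMena11a alone listed 1 (4.18%) and siMena alone 0 (0.390%). The siMena11a list was the longer one in both replicates, and the part of list length in these counts was not tested.

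Windows around 10 other mesenchymal genes and 6 epithelial genes gave the setting. The other mesenchymal genes were SNAI1, TWIST2, CDH11, SPARC, PRRX1, MMP2, FOXC2, AXL, TGFBI and ITGA5, and their windows held 29 regions, 4.203 per 100 kb. Every one of the 10 windows had at least 2 regions, and AXL, a receptor kinase, had the most widely listed, in 6 libraries. The epithelial windows, of CDH1, EPCAM, ESRP1, GRHL2, KRT8/KRT18 and OVOL2, held 36 regions, 7 of them at CDH1 and 11 at GRHL2, and at least 3 in each of the 6. In siMena11a replicate 1, 80.0% of the 20 members were listed, against 72.4% of the other mesenchymal, 69.4% of the epithelial and 74.6% of all regions. In untreated replicate 1 the same shares were 60%, 62.1%, 66.7% and 72.4%. The 80.0% includes 5 members that are members only through siMena11a replicate 1. The median fold of listed members was 6.91 in siMena11a replicate 1, against 6.62 over its whole list, and 5.94 in untreated replicate 1, against 6.99. In siControl replicate 1 it was 5.42, against 6.49. In these 3 libraries, in the same order, the median was 5.70, 7.14 and 5.95 in the other mesenchymal windows. It was 6.09, 6.47 and 5.93 in the epithelial windows. The 6.91 also includes the 5 members listed in siMena11a replicate 1 only. Members also lay above their list in untreated replicate 2, at 6.41 against 6.22, and in siMena replicate 1, where 2 members had a median of 6.37 against 6.11. They lay below it in siControl replicate 2 (2 members, 4.77 against 4.93) and siMena11a replicate 2 (1 member, 4.31 against 4.66). The median percentile of the members' folds was 55.7 in untreated replicate 2 and 55.1 in siMena11a replicate 1. It was 31.7 in untreated replicate 1, and 29.7 and 43.9 in siControl replicates 1 and 2. In siMena11a replicate 2 it was 37.4, and in siMena replicate 1 it was 49.9.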

How the data were processed

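ATAC-seq peak lists of 8 H1650 libraries were used, 1 list per library. The sample labels give total RNA as the molecule and a transcriptomic source. The lists were taken as ATAC-seq from the series title, the protocol and the file layout. Per the submitters' processing notes, FastQC 0.11.5, Bowtie2 2.3.4.2, SAMtools 1.7, MACS2 2.2.5 and build hg19 were used. Trimming, duplicate removal and transposase shift are not given in the sources used here. The deposited columns are the score (10 times the −log10 q, rounded down, in all rows but 7 of siControl replicate 1 and 2 of siMena11a replicate 1), the fold (a ratio), the −log10 p and q, and the summit position, in the MACS2 narrowPeak layout. Rows of one interval counted as 1 peak. Regions, windows and calls were built in Python 3.11.15 with numpy 2.4.6, pandas 2.3.3 and SciPy 1.17.1, and figures with matplotlib 3.10.9. The code was tested on simulated data. Tags at a summit and the local background were recovered from the fold and −log10 p by the Poisson formula, to within 0.001 of the deposited −log10 p. The genome-wide background is the most common local background of a list, and no lower background was accepted. Intervals are 95% exact Poisson and cover counting error only. The members and gene lists were chosen with earlier results of these data known. The extra windows were set by hand from general knowledge of gene positions, not from an annotation of hg19, which was not used here. Exon, intron or promoter position of regions was therefore not analysed here. All 7 symbols matched RefSeq (GRCh38.p14), and 5 its promoter table. Named regions were, per window, the one listed in the most libraries (ties by the mean percentile of its folds), those gained or lost and those listed in at least 6 libraries. The others are described so that every member is accounted for. Alternatives were shortened lists, a score of at least 50, 50% coverage of a region, merging only on overlap, windows widened by 20 kb, the replicate number as a block, and leaving out each library.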

Additional observations from a re-analysis of the deposited data

How the results depend on the processing

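Of 106 recomputed counts, 86 stayed within 1.5 times the reported one and 20 did not. With lists shortened to the shortest, 0 regions of the 7 windows were left among all 8 lists, 1 member (the first VIM region) was lost in siMena11a and gained in siControl against untreated, and 0 were lost in siControl against untreated or gained in siMena11a against siMena. With a score of at least 50, 2 were lost in siControl against untreated, the second of them the VIM region from 17272020. With peaks covering 50% of a region, 0 were gained in siMena11a against siMena. Leaving out 1 library at a time gave 0 to 6 gained and 0 to 1 lost members for siMena11a against siControl, and 0 to 8 lost for siMena against siControl. For siControl against untreated it gave 0 to 1 gained and 1 to 5 lost, and for siMena11a against siMena 1 to 14 gained. The highest values came without siMena11a replicate 2 (6 and 14), siControl replicate 2 (8) and siControl replicate 1 (5). For siMena11a against siControl, leaving out siControl replicate 1 gave 1 gained and 1 lost member, both at TWIST1, and leaving out siMena11a replicate 1 gave 1 lost, at VIM. For siMena against siControl, 1 was lost without siControl replicate 1 (TWIST1) or siMena replicate 1 (VIM). For siControl against untreated, 3 were lost without untreated replicate 2 and 2 without untreated replicate 1, and 1 was gained without either siControl library. Fewer libraries make these calls easier to meet by construction. With the replicate number as a block, a call had to be made in each number, which gave the reported counts, 1 lost for siControl against untreated and 1 gained for siMena11a against siMena, by construction. Regions in the windows numbered 15 to 20 without 1 library, the 15 without siMena11a replicate 1.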

Other observations

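Among the 8 members listed in 1 library, 5 came from siMena11a replicate 1, the longest list, which also held 35.7% of all 14570 regions listed once. The other 3 came from untreated replicate 1 (SNAI2), untreated replicate 2 (VIM) and siControl replicate 2 (TWIST1). The VIM region from 17258207 had a fold of 8.75 in untreated replicate 2 and was not listed in siMena11a replicate 1, where a fold of 3.72 sufficed at the genome-wide background. The TWIST1 region from 19183636 was listed in siControl replicate 2, one of the shorter lists, and in none of the 4 replicate 1 lists. Both were chosen for mention after their values were seen.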
